A study of Mus musculus with 3 samples.

Results

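Strial intermediate cells were taken as the barcodes with 200 to 6000 detected genes, at most 30% of UMIs from mitochondrial genes (mt-) and at least 1 UMI in 3 or more of 6 markers, Dct, Tyr, Kcnj13, Mlana, Kcnj10 and Met. Of 25818 barcodes that met the limits on genes and mitochondrial UMIs in 3 libraries, 441 (1.71%) met this rule and are called members. The libraries were 1 from postnatal day 14 (P14) and 2 from P28, each made from 14 cochleae of 7 pooled C57BL/6J mice (labelled C57/B6). No genotype change or treatment was stated. The tissue of each library was dissociated with collagenase IV in 1 tube and counted with 10x Chromium 3' chemistry. The tissue was the cochlear epithelium with the stria vascularis after the bony wall was removed, so a library is 1 pool of animals and 1 pool of cell types. P14 replicate 1 held 2513 barcodes with 10125255 UMIs, P28 replicate 1 held 11948 barcodes with 35485894 UMIs and P28 replicate 2 held 18196 barcodes with 37530956 UMIs.

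Intermediate cells are the melanocytes of the stria vascularis, derived from the neural crest, and lie between the marginal cells that face the endolymph and the basal cells that face the spiral ligament. Their inward rectifier potassium channel, encoded by Kcnj10, generates the endocochlear potential on which hair cell transduction depends. Dct and Tyr encode enzymes of melanin synthesis, Mlana a melanosome protein, Kcnj13 another inward rectifier and Met the receptor for hepatocyte growth factor.

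The members were not spread evenly over the libraries. P14 replicate 1 held 1 member among 2005 barcodes (0.0499%, exact 95% interval 0.00126 to 0.278), P28 replicate 1 held 11 among 9678 (0.114%, 0.0568 to 0.203) and P28 replicate 2 held 429 among 14135 (3.04%, 2.76 to 3.33). P28 replicate 2 therefore stood apart from the other libraries and supplied 97.3% of all members. These intervals, and all others given here, cover counting error only. The 11 members of P28 replicate 1 had 36038 UMIs in total, so that 1 UMI was worth 27.7 CPM (UMIs of a gene per 1000000 UMIs) and a gene at 0 could have had up to 83.2 CPM, which is 3 UMIs. The 429 members of P28 replicate 2 had 1099994 UMIs, and there 1 UMI was worth 0.909 CPM and the floor was 2.73 CPM. Median UMIs per barcode were 2203 in members and 1650 in the other barcodes of P28 replicate 1, and 1924 and 1430.5 in P28 replicate 2. P28 replicates 1 and 2 shared 54 barcode sequences, P14 shared 10 with replicate 1 and 20 with replicate 2, and 0 of the shared barcodes were members in both of their libraries.

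The label could not be upheld for the P14 member. This barcode had 11379 UMIs against a median of 2003 in the other P14 barcodes, and its markers were 1 UMI of Mlana, 2 of Kcnj10 and 1 of Met. Dct, Tyr and Kcnj13 were at 0 in it, as were Gpnmb, Slc45a2 and Ednrb, where 0 allows up to 264 CPM. It carried instead 57 UMIs of Gjb2, a gap junction gene of supporting cells and fibrocytes, 287 of Epyc and 61 of Ucma, and it met the gate used below for spindle and root cells. Epyc, an extracellular matrix proteoglycan, stood at 25222 CPM and Lgals1, a galectin, at 23376 CPM. In all, 38 genes lay above and 20 below both P28 levels with intervals that did not overlap, and with 1 barcode and 1 library at P14 no test of age was made. The P14 barcode enters no further comparison.

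In P28 replicate 1 the 11 members differed widely in the marker that the rule leans on most. Dct UMIs per barcode were 72, 68, 45, 13, 11, 11, 10, 3, 2, 0 and 0. The 5 barcodes with 4 or 5 markers held 7, 5, 2, 5 and 1 UMIs of Gpnmb, which is not part of the rule. One barcode with 9177 UMIs and no Dct held 68 UMIs of Ocm, the outer hair cell calcium buffer oncomodulin, and 16 of Gjb2, and another with 7085 UMIs and 2 of Dct held 4 of Sox2, a supporting cell gene. Barcodes with 6 and 2 UMIs of Kcne1, a marginal cell channel subunit, held the 8 UMIs of that gene in this library's members. The levels of replicate 1 thus rest on few barcodes, and 4 of the 11 also met the gate of another cell type.

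The marker genes themselves are a description of what the rule selected and were not tested. Dct reached 6521 CPM in the members and 2.03 CPM in the other barcodes of P28 replicate 1, and 10147 and 100.3 CPM in P28 replicate 2. Tyr stood at 527 CPM in members and 0.161 in the others of replicate 1, and at 502 and 1.99 CPM in replicate 2. Mlana stood at 388 and 0.484 CPM in replicate 1 and at 426 and 6.61 CPM in replicate 2. All of these are levels per UMI, and since the other barcodes held far more UMIs in all, part of the UMIs of each gene lay outside the members. Kcnj10 had 527 CPM in members and 45.2 in the others of replicate 1, and 859 and 48.6 CPM in replicate 2. Met had 333 and 66.0 CPM, and 762 and 76.1 CPM, in the same order. Kcnj13 was the marker with the lowest level in members, at 111 and 238 CPM in the replicates, with 17.5 and 9.47 CPM in the others.

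Dct was counted in 99.3% of the members of P28 replicate 2, Kcnj10 in 80.7%, Met in 78.3%, Tyr in 60.1%, Mlana in 58.3% and Kcnj13 in 34.97%. Barcodes of another cell type give a background for such shares. The part of free RNA or of 2 cells under 1 barcode in that background was not tested. Among 475 barcodes of the same library that met a macrophage gate, with a median of 1778 UMIs, Dct was counted in 11.4%, close to the 10.7% among all other barcodes, and Tyr in 0.842%. In P28 replicate 1 the share of macrophage gate barcodes with a Dct UMI was 0.575% of 348, so the Dct background differed between the libraries along with their number of members. With each barcode thinned to 1000 UMIs, Dct was counted in 90.4% of 365 members, 6.55% of 9628 others and 7.41% of macrophage gate barcodes in P28 replicate 2. Genes outside the rule showed the same contrast there. Gpnmb, a melanosome glycoprotein, had a UMI in 82.1% of members and 2.32% of macrophage gate barcodes, Slc45a2 in 54.3% and 0.211%, and Ednrb, the endothelin receptor of the melanocyte lineage, in 58.0% and 8%.

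**Figure D1:**
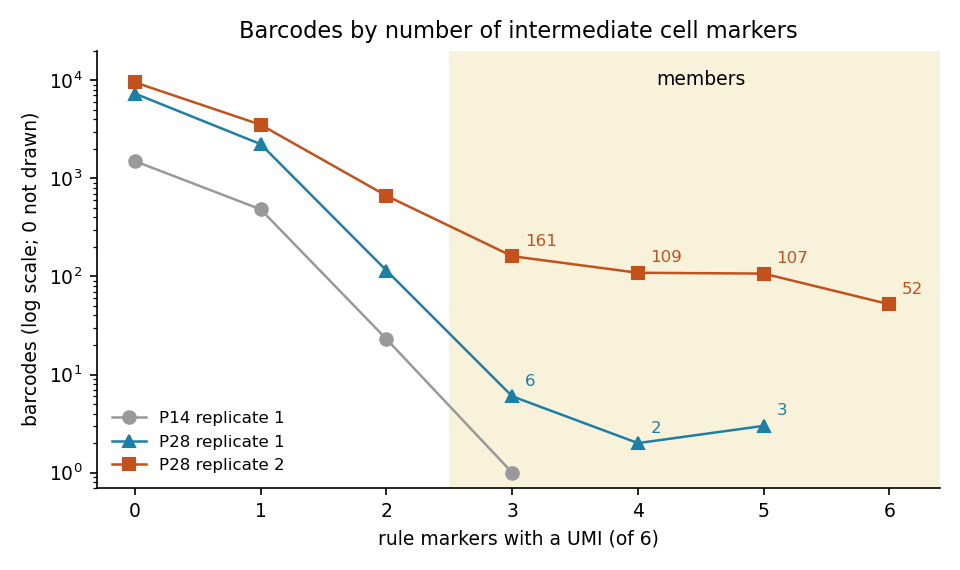
Number of barcodes (vertical, log axis, counts of 0 not drawn) by how many of the 6 rule markers had a UMI (horizontal), with 1 line per library and the members shaded. P28 replicate 2 has 161, 109, 107 and 52 barcodes with 3, 4, 5 and 6 markers, P28 replicate 1 has 6, 2 and 3 with 3, 4 and 5, and P14 replicate 1 has 1 with 3.

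Within P28 replicate 2 the members split by how many markers they carried. Of the 429, 161 had exactly 3 markers, 109 had 4, 107 had 5 and 52 had all 6, while just below the threshold 665 barcodes had 2. The most frequent combinations at 3 markers were Dct, Kcnj10 and Met in 40 barcodes, Dct, Mlana and Kcnj10 in 29 and Dct, Mlana and Met in 24. Kcnj10 and Met are also expressed by glia and other epithelial cells, so the first combination contains 1 melanocyte gene. Dct summed to 785 CPM in the barcodes with 2 markers and to 3054 CPM in those with 3.

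Genes that the rule did not use followed the number of markers. Gpnmb stood at 91.1 CPM in barcodes with 2 markers, and at 504, 2086, 2854 and 3096 CPM with 3, 4, 5 and 6. Slc45a2, a transporter of the melanosome membrane, stood at 29.3 CPM with 2 markers and at 113, 565, 806 and 770 CPM with 3 to 6. Both genes were higher at each number of markers up to 5, and from 5 to 6 they moved little. Ednrb ran from 174 CPM at 3 markers to 944 CPM at 6, and Hpse, encoding heparanase, from 297 CPM at 3 to 1911 CPM at 5 and 1669 CPM at 6. Ptgds, a prostaglandin D synthase, was nearly flat in replicate 2, with 11032 CPM at 3 markers and 10977 CPM at 4 or more, against 5150 CPM in the others. In the few members of replicate 1 it was not flat, with 2876 CPM at 3 markers and 15679 CPM at 4 or more. The number of markers was counted in the same cells, so these steps are a description with no test.

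Marker lists of other cell types differed in how they followed the number of markers. In P28 replicate 2 the hair cell list summed to 2683 CPM with 3 markers and 269 CPM with 4 or more, supporting and sulcus cells to 1715 and 585 CPM, basal cells to 1689 and 446 CPM and fibrocytes and fibroblasts to 4356 and 2672 CPM. Lower sums with 4 or more markers were also found for macrophages, spindle and root cells, endothelial cells, B cells and spiral ganglion neurons, whereas marginal cells summed to 664 and 1516 CPM, glia to 1560 and 2015 CPM and erythroid cells to 6989 and 8499 CPM. The single genes that follow were chosen after their values were seen. Ocm stood at 1083 CPM with 3 markers and at 12.4, 7.57 and 7.55 CPM with 4, 5 and 6, against 1150 CPM in the other barcodes. Its 499 UMIs at 3 markers came from 9 barcodes, and 194 of them from 1. Pcp4, a calmodulin regulator found in hair cells, stood at 833 CPM with 3 markers and at 33.0 CPM with 4. Emilin2, a matrix gene, stood at 1198 CPM with 3 markers and at 540, 125 and 37.8 CPM with 4, 5 and 6. It is on the list of supporting and sulcus cells, but the study used it as a marker of tympanic border cells. Most of that list's 1715 CPM with 3 markers was thus Emilin2. Coch, the cochlin of spiral ligament fibrocytes, stood at 1704 CPM with 3 markers and at 400 CPM with 6. In the spiral ganglion genes single barcodes weighed heavily. Snap25, a synaptic vesicle fusion protein, had 81 UMIs at 6 markers, of which 77 came from 1 barcode, and Nefh, the heavy neurofilament, had 49, of which 47 came from 1 barcode.

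Per barcode, Dct had a median of 27.2 UMIs per 10000 in the members with 3 markers and of 175 in the 268 members with 4 or more. Of all 429 members, 3 had no Dct UMI, 79 had at most 3 and 295 had at least 10. The sum of Ocm, Pcp4, Emilin2, Otos and Coch, genes of other cell types chosen after their values were seen, had a median of 18.1 UMIs per 10000 with 3 markers and of 6.24 with 4 or more. Ribosomal protein genes took 13.9% of UMIs with 3 markers, 7.39% with 4 or more and 13.6% in the other barcodes. Dct is a rule marker and the 5 genes were chosen for their values, so these medians are a description, and the part of free RNA or of 2 cells under 1 barcode in them was not tested.

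**Figure D2:**
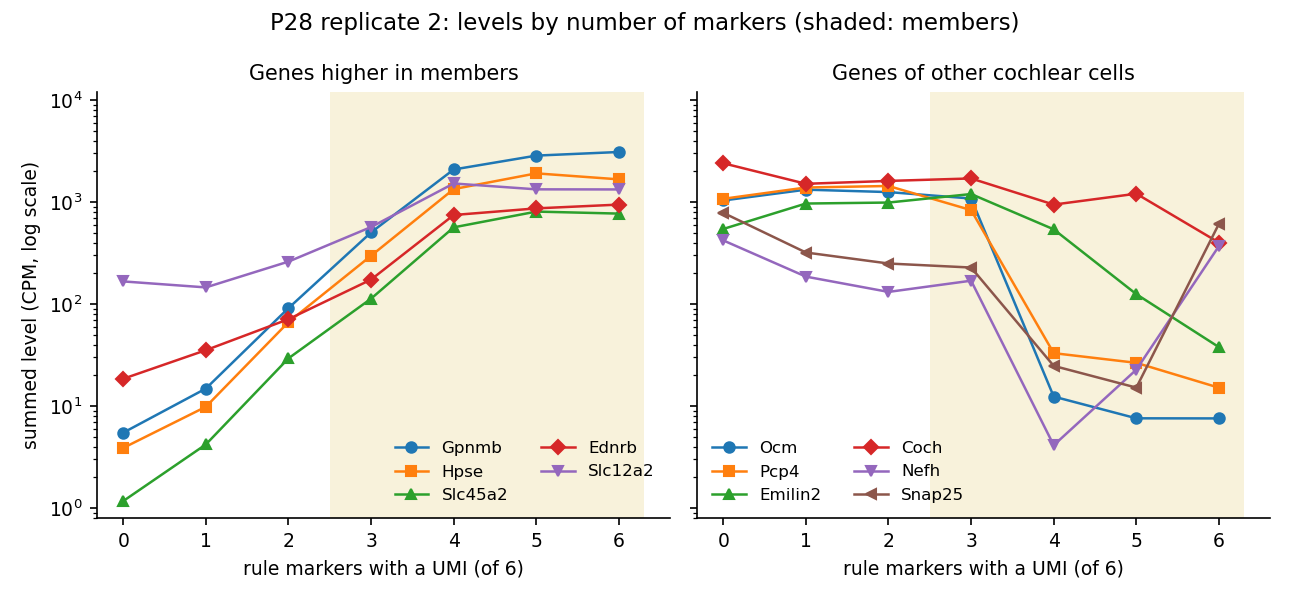
Summed CPM in P28 replicate 2 (vertical, log axis) by the number of rule markers with a UMI (horizontal, members shaded), for genes outside the rule that were higher in members (left) and for genes of other cochlear cells (right). Gpnmb stands at 504 CPM with 3 markers and at 3096 CPM with 6, and Ocm at 1083 and 7.55 CPM.

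**Figure D3:**
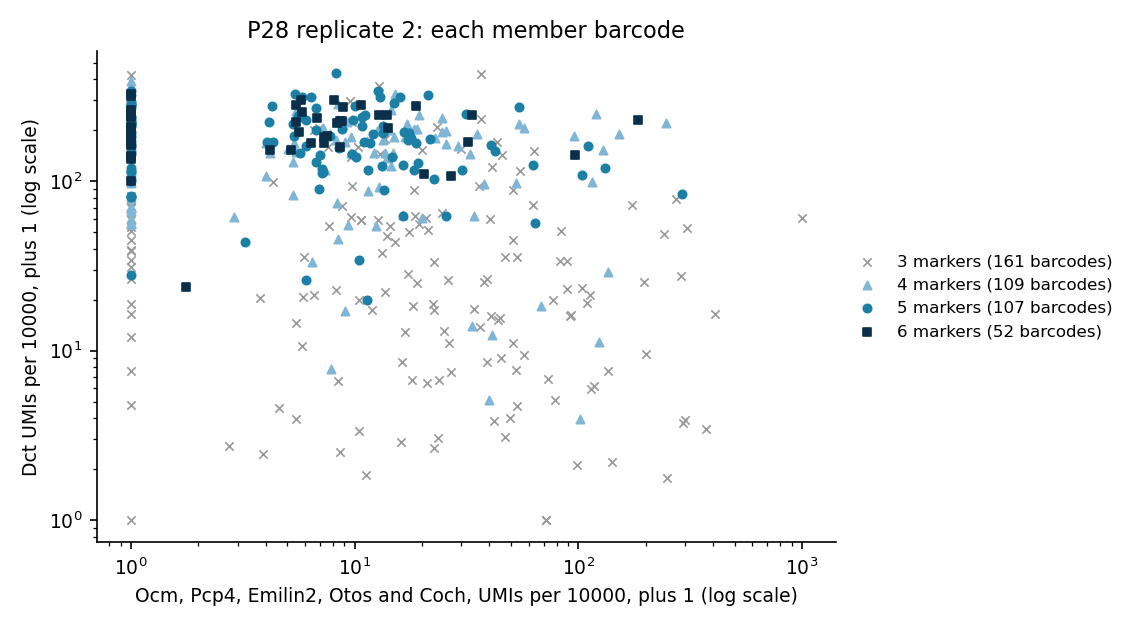
Each point is 1 of the 429 members of P28 replicate 2, with UMIs per 10000 of Ocm, Pcp4, Emilin2, Otos and Coch on the horizontal axis and of Dct on the vertical axis, both plus 1 and on log scales. Barcodes with 3 markers spread to the lower right, with a median Dct of 27.2 per 10000, and those with 4 or more gather at high Dct, with a median of 175.

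To ask which other genes set the members apart, UMIs were summed over members and over all other barcodes in each P28 library, and the 2 sums of each library were compared with edgeR. A small share of genes passed the threshold. With few member UMIs in replicate 1, this share does not measure how alike members and other barcodes are. At an adjusted p under 0.05, 285 genes (1.85% of the 15392 tested) had a higher and 104 (0.676%) a lower level in members, and the median log2 fold change over all genes tested was -0.14. The direction was the same in both libraries for 199 of the 285 and 103 of the 104. An unadjusted p under 0.05 was reached by 1762 genes. The barcodes were chosen by 6 genes measured in the same cells. A p for another gene thus sets its difference against the spread of such differences between 2 libraries. It does not test whether the members are 1 cell type. With 4 sums and 1 residual degree of freedom, edgeR gave all genes the same spread, and DESeq2 called 52 genes higher and 2 lower among the same genes.

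The genes named as higher included several known from pigment cells. Gpnmb stood at 610 CPM in members and 0.388 CPM in the others of P28 replicate 1, and at 1729 and 14.5 CPM in replicate 2 (log2 fold change 8.22 ± 0.76 SE, adjusted p = 1.76e-24). Slc45a2 stood at 361 and 0.0969 CPM in replicate 1 and at 458 and 4.13 CPM in replicate 2 (8.08 ± 0.63, adjusted p = 6.53e-34). Hpse stood at 777 and 1.23 CPM in replicate 1 and at 1080 and 10.2 CPM in replicate 2 (7.70 ± 0.69, adjusted p = 8.71e-26). In both libraries the members lay far above the others for each of these genes. Pax3, a transcription factor of the neural crest, had 7 UMIs in the members of replicate 1 and none in its other barcodes, and 99.1 and 0.776 CPM in replicate 2 (7.82 ± 0.59, adjusted p = 9.32e-37). Tspan10, a tetraspanin of pigment cells, had 55.5 and 0 CPM in replicate 1 and 149 and 0.993 CPM in replicate 2 (7.49 ± 0.52, adjusted p = 1.82e-42). Trpm1, a cation channel of melanocytes and retinal bipolar cells, had 83.2 and 0.258 CPM in replicate 1 and 248 and 4.32 CPM in replicate 2 (6.18 ± 0.59, adjusted p = 5.33e-23). The levels of these genes in replicate 1 rest on 2 to 28 UMIs.

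The rest of the 15 named genes had log2 fold changes from 4.80 for Mlph, the melanophilin that ties melanosomes to their motor, to 6.63 for Lhfpl1. Car8, a carbonic anhydrase-related protein, stood at 166 and 0.388 CPM in replicate 1 and at 48.2 and 1.12 CPM in replicate 2. Cdh19, a cadherin of the neural crest lineage, stood at 111 and 0.840 CPM and at 50 and 1.02 CPM. Gsta2 and Gm10639 were also named, with log2 fold changes of 5.56 and 5.47, but they have near-identical copies among the glutathione transferases and their counts are uncertain. Kcnn4, a calcium-activated potassium channel, and Chsy3, a chondroitin synthase, completed the list together with Pmel at 5.27, 5.01 and 5.11.

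**Figure D4:**
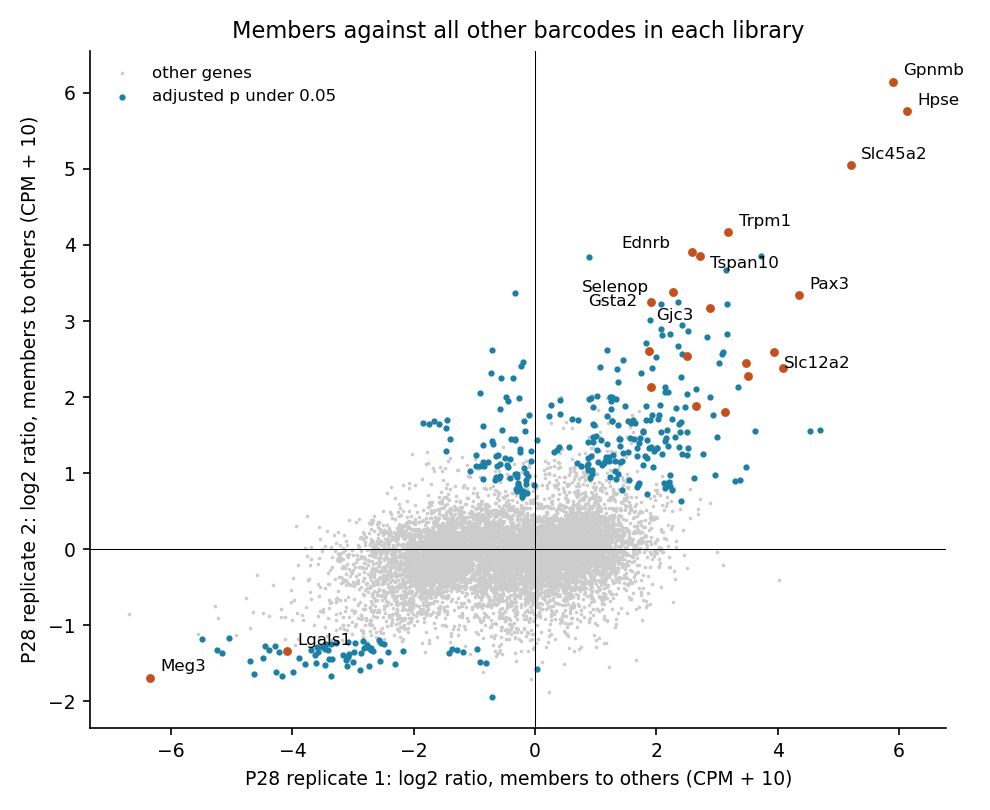
Each point is 1 gene with at least 10 UMIs in the members of P28 replicate 2, placed by the log2 ratio of CPM plus 10 between members and other barcodes in P28 replicate 1 (horizontal) and in P28 replicate 2 (vertical), with genes past an adjusted p of 0.05 in colour. Gpnmb, Hpse and Slc45a2 lie at the upper right in both libraries and Meg3 at the lower left, and a band of coloured genes left of the vertical line is higher in replicate 2 alone.

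Among the genes of melanin synthesis outside the rule, Slc45a2 and Pmel were higher in members, and Tyrp1, Oca2 and Mc1r were at or near 0 UMIs. Of 12 genes on the list, 3 were used by the rule, 3 were too low to test, and 2 of the 6 tested were higher, with a median log2 fold change of 1.10 over the 6. Slc45a2 is given above. Pmel, the fibril protein of the melanosome, stood at 83.2 and 0.710 CPM in replicate 1, from 3 UMIs, and at 28.2 and 0.962 CPM in replicate 2 (5.11 ± 0.51, adjusted p = 5.07e-21). Tyrp1, which acts downstream of Dct in eumelanin synthesis, had 0 UMIs in the members of replicate 1 and 1 UMI in those of replicate 2, against 5.39 and 6.58 CPM in the others (adjusted p = 0.324). Oca2, a melanosome anion channel gene, and Mc1r, the melanocortin receptor, had 0 UMIs in the members of both libraries. Slc24a5, a cation exchanger of the melanosome network, stood at 83.2 and 36.4 CPM in replicate 1 and at 55.5 and 32.3 CPM in replicate 2 (adjusted p = 0.353). The depth of replicate 2 puts Tyrp1, Oca2 and Mc1r at or under its floor of 2.73 CPM.

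Promoters of these genes are shown because the melanocyte factor MITF binds the E-box CATGTG, or CACATG on the other strand, an instance of CANNTG. The 160 bases before the RefSeq start are given for rule genes Tyr and Dct, for Trpm1 and Tspan10 among the named genes, and for Tyrp1, which was near 0 in members. They lie on GRCm38.p6 at chr7:87493513-87493672 (Tyr, minus strand), chr14:118052247-118052406 (Dct, minus strand), chr7:64153675-64153834 (Trpm1, plus strand), chr11:120442471-120442630 (Tspan10, plus strand) and chr4:80834053-80834212 (Tyrp1, plus strand), and capitals mark the motif.
Tyr: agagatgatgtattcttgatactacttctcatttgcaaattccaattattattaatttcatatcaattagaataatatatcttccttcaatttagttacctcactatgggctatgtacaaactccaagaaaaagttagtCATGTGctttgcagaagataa
Dct: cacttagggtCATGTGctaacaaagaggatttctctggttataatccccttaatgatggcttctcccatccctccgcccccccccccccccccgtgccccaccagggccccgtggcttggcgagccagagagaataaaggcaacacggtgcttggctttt
Trpm1: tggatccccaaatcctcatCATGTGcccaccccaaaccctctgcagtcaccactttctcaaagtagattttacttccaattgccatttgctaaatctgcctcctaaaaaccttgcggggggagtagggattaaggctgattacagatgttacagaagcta
Tspan10: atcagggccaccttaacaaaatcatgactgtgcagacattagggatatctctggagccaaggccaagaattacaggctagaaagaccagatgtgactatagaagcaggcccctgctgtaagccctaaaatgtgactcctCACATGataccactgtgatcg
Tyrp1: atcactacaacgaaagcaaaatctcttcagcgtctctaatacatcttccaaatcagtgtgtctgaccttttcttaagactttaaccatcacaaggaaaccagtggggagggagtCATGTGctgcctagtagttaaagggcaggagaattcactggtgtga
The motif begins 21 bases before the start of Tyr and of Tspan10, 46 before that of Tyrp1, 141 before that of Trpm1 and 150 before that of Dct. In windows from 250 bases before to 50 after the start, it was found on either strand in 3 of 5 matched rule genes (Dct, Kcnj13, Tyr), in 2 of 8 matched named genes (Trpm1, Tspan10) and in 7 of 8 matched melanin genes, against 15.9% of all 27025 genes in the table. Tyrp1 holds it as Tyr does although their levels in members differ. The genes printed were chosen after their values were seen, and a match describes letters in a window, not a bound site.

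Of the 24 genes for melanosome formation and transport, 5 were higher in members and 0 lower, with a median of 0.13, against 1.85% higher, 0.676% lower and a median of -0.14 over all genes tested. The same background holds for every list in the comparison with all other barcodes. Besides Gpnmb and Mlph these were Rab27a, Rab38 and Hps3. Rab27a, the GTPase that recruits melanophilin to melanosomes, had 60.9 CPM in the members and 2.92 CPM in the others of replicate 2, and 0 UMIs in the members of replicate 1 (4.41 ± 0.38, adjusted p = 3.33e-27). Rab38, which sorts cargo to melanosomes, was likewise at 0 UMIs in the members of replicate 1 and at 23.6 and 2.30 CPM in replicate 2, and Hps3, a subunit of a lysosome biogenesis complex, was at 0 UMIs and at 105 and 26.6 CPM. The calls of these 3 genes thus rest on replicate 2, and DESeq2 called Gpnmb and Mlph but not Rab27a (adjusted p = 0.0565), Rab38 (0.991) or Hps3 (1.00). The remaining 19, among them Myo5a, most BLOC1 subunits and Cd63, did not pass.

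The markers of melanocytes that the rule left out gave 7 higher and 0 lower of 10 tested, with a median of 2.05. Mitf, the master regulator of melanocytes, stood at 55.5 and 21.3 CPM in replicate 1 and at 179 and 25.8 CPM in replicate 2 (2.53 ± 0.47, adjusted p = 8.91e-06). Sox10, which is shared with glia, stood at 444 and 89.8 CPM and at 238 and 86.5 CPM (1.68 ± 0.48, adjusted p = 0.0204). Ednrb stood at 194 and 24.0 CPM and at 559 and 27.9 CPM (3.75 ± 0.58, adjusted p = 2.63e-08). For Sox10 and Ednrb the members lay above the others in both libraries. The Mitf level in members of replicate 1 came from 2 UMIs. Its interval of 6.72 to 200 CPM covers the level of the others, so the Mitf call rests on replicate 2. Kit, the receptor that skin melanocytes need, was at 0 UMIs in the members of replicate 1 and at 12 UMIs, 10.9 CPM, in replicate 2, against 13.0 and 17.5 CPM in the others (adjusted p = 0.761). DESeq2 called Ednrb, Pax3, Pmel and Slc45a2, and gave an adjusted p of 0.565 for Mitf and 0.847 for Sox10. On the list of 13 tested lineage regulators, Mitf, Sox10, Pax3 and Ednrb were higher, and Zeb2, Sox9, Lef1 and Snai2 did not pass.

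Of 21 growth factor and adhesion receptors, 6 were higher and 0 lower, with a median of 0.28, against 1.85% higher, 0.676% lower and a median of -0.14 over all genes tested. Nrp2, the neuropilin that binds semaphorins and VEGF, stood at 333 and 76.3 CPM in replicate 1 and at 444 and 68.8 CPM in replicate 2 (2.34 ± 0.52, adjusted p = 6.36e-04). Cd44, the hyaluronan receptor, stood at 250 and 83.4 CPM and at 297 and 73.2 CPM (1.75 ± 0.50, adjusted p = 0.0217). Ncam1, a neural cell adhesion molecule, stood at 111 and 22.0 CPM and at 147 and 20.2 CPM (2.72 ± 0.43, adjusted p = 6.03e-08). In these genes the members lay above the others by a like amount in both libraries. Plxnc1, a semaphorin receptor, was at 0 UMIs in the members of replicate 1 and at 105 and 8.85 CPM in replicate 2, and Itga4 passed from 2 UMIs in replicate 1 and 18 in replicate 2. Erbb3, Egfr, Fgfr1, Fgfr2, Igf1r and Insr did not pass. DESeq2 called Ednrb alone on this list, with an adjusted p of 0.160 for Nrp2, 0.119 for Ncam1 and 1 for Cd44.

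For ion transport, members carried more of Slc12a2, the sodium-potassium-chloride cotransporter NKCC1. Slc12a2 stood at 1526 and 90.4 CPM and at 1054 and 166 CPM (3.18 ± 0.59, adjusted p = 8.91e-06). Members lay above the others in both libraries. Slc12a2 is a marker of marginal cells, and Kcne1, the subunit of the marginal cell channel, was also higher, at 222 and 0 CPM and at 50 and 10.5 CPM (3.04 ± 0.48, adjusted p = 7.02e-08). In replicate 2, however, Kcne1 stood at 124 CPM with 4 markers and 7.55 CPM with 6, and 13 of its 30 UMIs at 4 markers came from 1 barcode. Its partner Kcnq1 stood at 55.5 and 2.45 CPM and at 13.6 and 6.33 CPM (adjusted p = 0.205). DESeq2 called Slc12a2 and gave an adjusted p of 1 for Kcne1.

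Over the 15 potassium and chloride transport genes tested the median log2 fold change was 0.75. Atp1b1, a beta subunit of the sodium-potassium ATPase, stood at 1415 and 1034 CPM and at 2720 and 1082 CPM (0.75 ± 0.67, adjusted p = 0.797). Atp1b2 stood at 1082 and 159 CPM and at 232 and 166 CPM (adjusted p = 0.142), so that its level in members differed between the libraries. Kcnj16, the usual partner of Kcnj10 in epithelia, stood at 333 and 162 CPM and at 49.1 and 133 CPM (adjusted p = 0.760).

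Of 12 gap and tight junction genes, 1 was higher and 0 lower, with a median of -0.49. It was Gjc3, a connexin of myelinating glia, at 111 and 6.39 CPM in replicate 1 and at 143 and 6.92 CPM in replicate 2 (4.31 ± 0.44, adjusted p = 8.70e-20). The main cochlear connexins Gjb2 and Gjb6 did not pass. Gjb2 was at 555 and 716 CPM and at 780 and 694 CPM (-0.22 ± 0.58), and Gjb6 at 499 and 384 CPM and at 800.0 and 377 CPM (0.63 ± 0.56). Gja1 had 0 UMIs in members of both libraries. Of 11 acid-base genes, Car2, a cytosolic carbonic anhydrase, passed, at 583 and 131 CPM and at 366 and 119 CPM (1.72 ± 0.50, adjusted p = 0.0268, but 0.758 by DESeq2), and Car14, a membrane carbonic anhydrase, did not, at 388 and 150 CPM and at 436 and 174 CPM (adjusted p = 0.272). The median of that list was -0.30.

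Among 24 antioxidant enzymes and metallothioneins, 3 were higher and 0 lower, with a median of 0.08. Gsta4, which conjugates lipid peroxidation products, stood at 749 and 139 CPM in replicate 1 and at 2025 and 203 CPM in replicate 2 (2.76 ± 0.63, adjusted p = 0.00109). Mt2, a metallothionein, stood at 111 and 19.1 CPM and at 145 and 31.4 CPM (2.25 ± 0.44, adjusted p = 3.29e-05), while Mt1 stood at 555 and 162 CPM and at 1000 and 276 CPM (adjusted p = 0.0896). Gstp1 passed with 0 UMIs in the members of replicate 1. The superoxide dismutases, catalase, the peroxiredoxins and Gpx4 did not pass. Of 22 lysosomal genes, 1 was higher, the channel Mcoln3, at 333 and 86.8 CPM and at 222 and 61.3 CPM (1.77 ± 0.47, adjusted p = 0.0107), and the list had a median of 0.27. Of 21 secreted signals, Bmp7 and Vegfa passed as higher with a list median of -0.28, Vegfa at 55.5 and 28.8 CPM and at 79.1 and 31.7 CPM (adjusted p = 0.0480). Ptgds stood at 8019 and 3065 CPM and at 11000.1 and 5150 CPM (1.07 ± 0.87) and did not pass (adjusted p = 0.739). Of the genes called in this paragraph, DESeq2 called Gsta4.

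Outside these lists, 34 genes were called higher, had the same direction in both libraries and reached at least 200 CPM in the members of replicate 2, a cut chosen after the values were seen, and DESeq2 called 17 of the 34. Selenop, the plasma selenium carrier selenoprotein P, stood at 1498 and 301 CPM in replicate 1 and at 4142 and 390.0 CPM in replicate 2 (2.72 ± 0.71, adjusted p = 0.00829). Syt4, a synaptotagmin, stood at 416 and 22.1 CPM and at 472 and 23.4 CPM (4.16 ± 0.54, adjusted p = 4.14e-12). Gpr37, a receptor of glia, stood at 139 and 6.75 CPM and at 216 and 7.79 CPM (4.63 ± 0.50, adjusted p = 3.04e-17). The group also held Tbx2, a T-box factor of melanocytes, at 388 and 76.8 CPM and at 359 and 78.0 CPM (2.13 ± 0.50, adjusted p = 0.00160). DESeq2 gave an adjusted p of 0.244 for Tbx2 and 0.212 for Mgll. Mgll, which hydrolyses monoacylglycerols, stood at 83.2 and 40.6 CPM and at 843 and 49.5 CPM, and Dclk1, a microtubule-linked kinase, at 832 and 73.2 CPM and at 771 and 168 CPM.

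**Figure D5:**
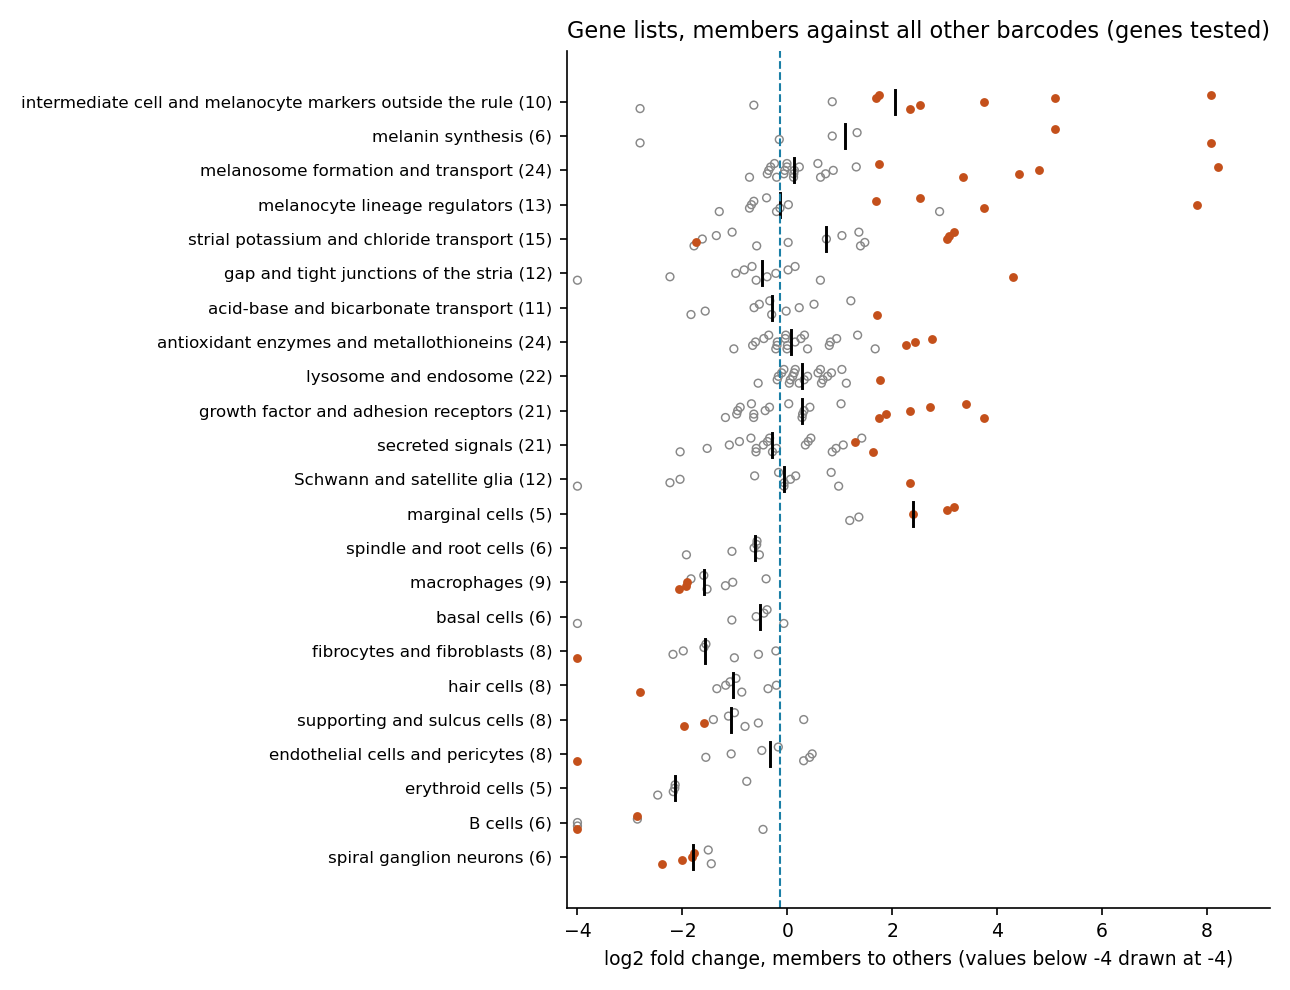
Log2 fold change of each tested gene between members and other barcodes, by gene list, with filled points for an adjusted p under 0.05 and open points for the rest, black ticks for list medians and a dashed line for the median of all genes tested (-0.14). Values below -4 are drawn at -4. The melanocyte markers outside the rule have a median of 2.05, the marginal cell markers of 2.40, and the B cell median of -5.83 lies outside the axis.

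The 8 genes named as lower included neuronal genes. Meg3, a long noncoding RNA, had 0 UMIs in the members of replicate 1 against 800 CPM in the others, and 193 and 643 CPM in replicate 2 (-2.61 ± 0.62, adjusted p = 0.00231). Lgals1 stood at 139 and 2531 CPM and at 612 and 1560 CPM (-2.53 ± 0.72, adjusted p = 0.0220). Snap25 stood at 27.7 and 671 CPM and at 178 and 586 CPM (-2.39 ± 0.60, adjusted p = 0.00543). Map1a, Tdrd12, Ndrg4 and Nefh were also named, with log2 fold changes from -2.14 to -1.999. Their levels in the members of replicate 1 were at or near 0 UMIs, and DESeq2 called none of the 8, with adjusted p from 0.0986 to 0.622.

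The marker lists of other cell types gave the following counts against the background of 1.85% higher and 0.676% lower. Of 6 spiral ganglion neuron genes, 4 were lower (Nefh, Nefl, Nefm, Snap25), and the list summed to 27.7 CPM in members and 1724 CPM in the others of replicate 1 and to 534 and 1488 CPM in replicate 2. Of 9 macrophage genes, 3 were lower (C1qa, C1qc, Csf1r), with sums of 0 and 486 CPM and of 148 and 438 CPM. Fibrocyte, hair cell and endothelial lists each had 1 lower gene of 8 (Col1a1, Slc17a8, Kcnj8), and B cells had 2 of 6 (Ighm, Igkc). The supporting and sulcus cell list had 2 of 8, Ucma and Vmo1, of which the study used Vmo1 as a marker of Reissner's membrane. Hair cell genes summed to 4800 CPM in members and 5125 CPM in the others of replicate 1, where 68 of 69 Ocm UMIs came from 1 barcode. The basal cell, spindle and root cell and erythroid lists had 0 genes past the edgeR test, with 1 of 6, 2 of 6 and 4 of 5 genes at an unadjusted p under 0.05. DESeq2 called 0 genes of these lists of other cell types.

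Among markers of neighbouring types, 3 of the 5 marginal cell genes tested were higher in members, namely Esrrb, Kcne1 and Slc12a2. Lmx1a and Kcnq1 did not pass. The list had a median of 2.40, with sums of 1998 and 106 CPM in replicate 1 and of 1159 and 197 CPM in replicate 2. Most of the sum was Slc12a2, and Bsnd was too low to test. Over 12 Schwann and satellite glia genes the median was -0.06. Mag, a defining myelin glycoprotein, had 0 UMIs in members of both libraries, and Mbp stood at 27.7 and 84.1 CPM and at 92.7 and 89.4 CPM. The part of glial or marginal RNA in these results was not tested. DESeq2 called Slc12a2 on the marginal cell list and 0 of the 12 glial genes. In replicate 2, 22 members (5.13%) met the glial gate against 2.79% of the others, 14 (3.26%) the marginal cell gate against 0.255%, 9 (2.10%) the macrophage gate against 3.47%, and 46 (10.7%) at least 1 gate against 13.2%.

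RNA composition also differed between members and others. Mitochondrial genes took 17.0% of UMIs in members and 10.7% in the others of P28 replicate 1, and 14.6% and 12.01% in replicate 2. Ribosomal protein genes took 8.51% and 13.1%, and 10.1% and 13.6%. Malat1, a nuclear noncoding RNA, took 2.82% and 2.01%, and 3.78% and 2.37%. The part of these shares in the other differences was not tested.

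Glia were compared directly because they share Sox10, Met and Kcnj10 with intermediate cells. The gate was a UMI in 3 or more of 6 glial genes, among them Mbp, Mag, Prx and Pmp22, met by 280 non-members of P28 replicate 1 and 382 of replicate 2. Members had 218 genes (2.01% of the 10826 tested) at a higher and 559 (5.16%) at a lower level, with a median of -0.07 (DESeq2 on the same genes called 45 and 77). Gpnmb had 610 CPM in members and 0 UMIs in glia of replicate 1, and 1729 and 11.03 CPM in replicate 2 (7.99 ± 0.76, adjusted p = 2.17e-22). Pax3 had 0 UMIs in glia of both libraries, so that with a floor of 3 UMIs per library it was at least 80.7-fold higher in members of replicate 1 and at least 44.9-fold higher in those of replicate 2, although DESeq2 did not call it (adjusted p = 0.361). Hpse, Slc45a2, Car8, Tspan10, Trpm1 and Mlph were the other named genes, with log2 fold changes from 6.08 to 8.26.

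The genes lower in members than in the glial gate included several known from myelinating Schwann cells. Igfbp6, an IGF-binding protein, had 0 UMIs in members and 822 CPM in glia of replicate 1 and 33.6 and 462 CPM in replicate 2 (-4.09 ± 0.66, adjusted p = 1.42e-07). Gatm, an enzyme of creatine synthesis, had 0 UMIs and 152 CPM, and 3.64 and 125 CPM (-5.00 ± 0.74, adjusted p = 8.90e-09). Ugt8a, which makes myelin galactolipids, had 0 UMIs and 205 CPM, and 10.0 and 184 CPM (-4.17 ± 0.67, adjusted p = 1.70e-07). Of 6 glial markers that the gate did not use, Cldn19, Cnp, Drp2 and Ncmap were lower and 0 higher. Atp1b2, Kcne1 and Slc12a2 were higher in members, Kcnk1 and Kcnma1 lower, and of 9 melanocyte markers outside the rule 6 were higher and 0 lower. All 6 spiral ganglion neuron genes were lower in members than in the glial gate. Their median log2 fold change was -3.13, against -1.80 in the comparison with all other barcodes. The gate barcodes thus also carried neuronal markers, and the gate does not stand for glia alone.

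Spindle and root cells border the stria, and their gate was a UMI in 3 or more of Slc26a4, Anxa1, Dpp10, P2rx2, Epyc and Kcnj16. It was met by 832 and 956 non-members of the P28 libraries, and in all comparisons the name stands for this gate. Members had 383 genes (3.29% of the 11640 tested) at a higher and 474 (4.07%) at a lower level, with a median of -0.07, and DESeq2 called 90 and 28. Gpnmb had 0 UMIs in the gate barcodes of replicate 1 and 9.08 CPM in those of replicate 2 (8.46 ± 0.70, adjusted p = 4.86e-30). Lgals1 had 139 CPM in members and 6075 CPM in the gate barcodes of replicate 1, and 612 and 3611 CPM in replicate 2 (-3.84 ± 0.73, adjusted p = 1.20e-05). Aqp4, the water channel of supporting and outer sulcus cells, had 0 UMIs and 155 CPM, and 17.3 and 135 CPM (-3.14 ± 0.54, adjusted p = 5.72e-07). Slc17a8, a glutamate transporter of inner hair cells, was also among the genes named as lower. It stood at 189 and 165 CPM in the gate barcodes of replicates 1 and 2, against 66.3 and 45.5 CPM over all non-members. The gate barcodes thus also carried markers of hair cells and supporting cells, and the gate does not stand for spindle and root cells alone. Of 22 antioxidant genes 6 were higher and 1 lower, and of 8 supporting and sulcus cell genes 5 were lower and 0 higher.

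The marginal cell gate (3 or more of Kcnq1, Kcne1, Esrrb, Lmx1a, Bsnd and Slc12a2) was met by 10 non-members of P28 replicate 1 and 35 of replicate 2. Of 2083 genes tested, 0 (0%) passed in edgeR, 163 had an unadjusted p under 0.05 and DESeq2 called 8 higher and 4 lower. A count of 0 does not show that members and this neighbouring layer are alike, and without the filter on low counts 35 genes were higher and 14 lower.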

How the data were processed

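Per the labels and the study's methods, the authors made droplet libraries with 10x Chromium 3' v3.1 chemistry and aligned them to mm10 with Cell Ranger (6.0.1 in the processing notes, 5.0.1 in the headers of the deposited files), and the deposited values are raw UMI counts per gene and barcode of 32285 genes in 3 libraries. The counts were read as deposited. The members and the 24 gene lists were chosen with earlier results of these data known. Doublets were not called, and overlaps with the gates of other cell types are given instead.

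For each comparison UMIs were summed per P28 library and side, where a side had at least 10 barcodes and 5000 UMIs, and tested with edgeR 4.0.16 (R 4.3.3; filterByExpr, TMM, quasi-likelihood F-test) with a library term, because both sums of a library came from 1 tube. Adjusted p-values are Benjamini-Hochberg values over all genes tested, with a threshold of 0.05, and the marker genes of the rule and of the gates got no p. The sums of a library deviated together by little, with correlations of 0.154 for the comparison with all other barcodes, 0.0989 for glia, 0.115 for spindle and root cells and -0.0858 for marginal cells. DESeq2 1.42.0 was the alternative. The scripts were tested on simulated data. The labels do not say whether the 2 P28 libraries came from separate litters. With the library term, a p-value sets a difference against how far such differences varied between 2 pools of mice. That spread was taken by edgeR from all genes together and not from the single gene.

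The text names the 15 genes higher and the 8 lower with the largest log2 fold change that passed the threshold in a direction shared by both libraries and had at least 30 member UMIs (higher) or 100 CPM in the other barcodes of each library (lower), with 8 in each direction for the gates, as well as genes of the lists. Other settings tried were other marker numbers, limits, filters, normalizations and the fit without a library term. Intervals are exact 95% Poisson or Clopper-Pearson intervals. Promoters came from RefSeq on GRCm38.p6, which is the mm10 build. Results for some genes are not reported here.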

Additional observations from a re-analysis of the deposited data

Results flagged for a closer look

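The limit of 30% mitochondrial UMIs left out barcodes with intermediate cell markers, and their number is given because it lies in data that no comparison used. In P28 replicate 2, 3536 barcodes had more than 30% mitochondrial UMIs, and 152 of them (4.30%, exact 95% interval 3.65 to 5.02) had 3 or more of the 6 markers, 61 of them 4 or more. Their median was 974 UMIs. Dct summed to 9569 CPM in these 152, and genes outside the rule stood at levels like those of the members, with Gpnmb at 1568 CPM and Slc45a2 at 403 CPM, while Ocm stood at 9.71 CPM. In P28 replicate 1 the same was found for 1 of 1872 barcodes and in P14 replicate 1 for 0 of 150, with an exact 95% upper limit of 2.43%. The members reported for P28 replicate 2 are thus those of the barcodes within the limit.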

How the results depend on the processing

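Without a library term, the number of genes higher and lower in members against all other barcodes went from 285 and 104 to 543 and 398, of which 280 and 91 were called in both fits. That fit without the replicate block gave 582 and 1058 against glia and 1066 and 1200 against spindle and root cells. With at least 10 UMIs asked of every sum, 484 genes were left and the counts were 60 and 14, of which 20 and 0 were also in the fit reported, 38 and 6 against glia, and 69 and 17 against spindle and root cells. DESeq2 called 58 and 3, 47 and 77 against glia, 92 and 28 against spindle and root cells and 8 and 4 against marginal cells, and 52 of its 58 and 2 of its 3 were among the genes of the fit reported. No filter gave 35 and 14 against marginal cells. With 4 or more markers asked and libraries admitted from 3 barcodes, an alternative chosen after seeing the data, 370 genes were higher, 237 of them also in the fit reported, and 261 were lower, 47 of them shared, and against glia 1032 were lower. With at most 15% mitochondrial UMIs and the same entry, 132 were higher, 126 of them shared, and 30 lower, 15 of them shared, and the log2 fold change of Atp1b1 turned to -0.40. With at most 3000 genes per barcode 112 genes were lower, 41 of them among the 104, and with members in another gate left out, at an entry of 3 barcodes, 92 were lower, 59 of them among the 104. The cause of the changes was not tested.

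The share of members was 1.197% at P14, 1.30% in P28 replicate 1 and 7.74% in replicate 2 with 2 or more markers, and 0%, 0.0517% and 1.90% with 4 or more. With 3 of the 4 markers other than Kcnj10 and Met it was 0%, 0.0517% and 1.46%, after thinning to 1000 UMIs 0%, 0.0141% and 2.47%, with at most 3000 genes 0% at P14, and with at most 15% mitochondrial UMIs 2.52% in replicate 2. Dct in the members of replicate 2 was 15260 CPM with 4 or more markers, 7719 CPM under the 15% limit, 13614 CPM with haemoglobin, ribosomal protein and mitochondrial genes left out and 13433 CPM after thinning.

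The planned fits with 4 or more markers, under 15% mitochondrial UMIs and without barcodes of other gates, at an entry of 10 barcodes, were not run because P28 replicate 1 kept 5, 4 and 7 members. Leaving out a library leaves 1 sum a side and no test. Of the P28 libraries depth limits replicate 1 more, where 3 UMIs are 83.2 CPM.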
